A study of Mus musculus with 9 samples.

Results

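The first of the steps between stages, from 16-20 to 21-25 somites, was examined in mid-foregut dissected from wild-type mice. This segment of the gut tube, bounded by the pharyngeal arches at the front and the liver at the back, gives rise to the lung buds. All 3 arrays titled 21-25 somites were compared with all 3 titled 16-20 somites, so 6 of the 9 arrays of the series belong to the comparison. The labels place the earlier group at embryonic day 8.5 and the later group at day 9.0. Every replicate was a pool of 5 to 10 foreguts from which the heart and the neural tube had been dissected away, and the labels name no strain. RNA of each pool (100 ng) went through 2 rounds of amplification before it was hybridised to an Affymetrix expression array. The pools hold gut endoderm together with the mesoderm around it, so a smaller signal can come from fewer cells of a type or from less RNA per cell, and these cannot be told apart here. Values are MAS5 signals in arbitrary units, with 1 probe set per gene, and a log2 difference is that of log2(signal + 26.1), 21-25 minus 16-20 somites, with its standard error from limma. The described classes exclude the cytosolic ribosomal proteins, the respiratory chain and the keratins, which appear as points of reference only.

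At these stages the ventral foregut wall receives FGF, BMP, WNT and retinoic acid signals from the neighbouring heart field and mesoderm, and the endoderm is being divided into future lung, thyroid, oesophagus, stomach and liver. Growing embryonic cells depend on a large apparatus for making protein, with ribosomes built in the nucleolus, tRNAs charged by aminoacyl-tRNA synthetases and separate ribosomes inside mitochondria, and on the proteasome for removing protein. Identity along the gut is held by transcription factors and chromatin regulators such as Hox, forkhead and Polycomb genes, while cadherins, receptor tyrosine kinases, semaphorins and matrix proteins govern how cells attach, signal and move.

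Between these stages no single gene passed the test, and the classes described here differed in their medians only. Outside the marker lists, the lowest of these medians were those of mitochondrial ribosomal proteins (-0.46) and the proteasome (-0.40), and the highest those of Hox genes (0.44) and cadherins (0.35). Of 8675 tested genes, 0 (0%) had an adjusted p under 0.05 by limma with Benjamini-Hochberg adjustment, and the smallest adjusted p was 0.314. At an unadjusted p under 0.05 there were 955 genes (11.0%), 499 higher at 21-25 somites (5.75%) and 456 lower (5.26%), where 434 are expected if nothing differed. The signals of both stages did not overlap in 1240 genes (14.3%), 605 of them higher (6.97%) and 635 lower (7.32%). For 3 arrays against 3, a share of 0.1 is expected if nothing differed. Genes named below were mostly picked by smallest p, which favours groups without overlap. Such groups were found in 96 of the 170 named genes, so in members picked by p they are no separate support. The all-gene median difference was 0.00, with 4363 genes above 0 and 4312 below. A log2 difference of 1 or more was found in 93 genes and one of -1 or less in 129. None of the genes below is therefore called, and the classes are described by counts and medians beside these figures for all genes. Genes of a class were measured on the same 6 arrays and are not independent of each other.

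Arrays of the same stage correlated across genes at 0.899 or more, but the 21-25 somite arrays did not stand apart from the earlier ones. 21-25 somites replicate 3 correlated at 0.968 and 0.967 with 16-20 somites replicates 1 and 3. With replicates 1 and 2 of its own stage it correlated at 0.945 and 0.940. 21-25 somites replicate 2 correlated at 0.949 with 16-20 somites replicate 1 and at 0.899 with 21-25 somites replicate 1. 21-25 somites replicate 1 had a narrow signal range, with a highest signal of 27480 where the other 5 arrays reached 43792 to 58128. Against the mean of the 16-20 somite arrays its genes of middle brightness lay 0.21 higher in the median and its brightest 1735 genes 0.11 lower, a pattern that the other arrays of its stage lacked. Replicate 2 of that stage ran the other way, 0.11 lower for genes of middle brightness and 0.09 higher for the brightest. 21-25 somites replicate 2 had the highest ratio of 3' to 5' actin signal, 45.3 where the others had 22.2 to 36.8. 16-20 somites replicate 2 was high in liver and heart markers, as given with those lists. Results are therefore given with their values in each array. Many higher classes were dim and many lower ones bright. The median log2 signal of members was 7.53 for Hox genes, 7.44 for cadherins and 7.96 for collagens. It was 10.7 for the proteasome and 10.5 for synthetases, and 9.69 for mitochondrial ribosomal proteins. Exceptions included Polycomb genes (10.5), higher, and Mediator subunits (8.47), lower. How far brightness shaped the class medians was not tested.

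**Figure D1:**
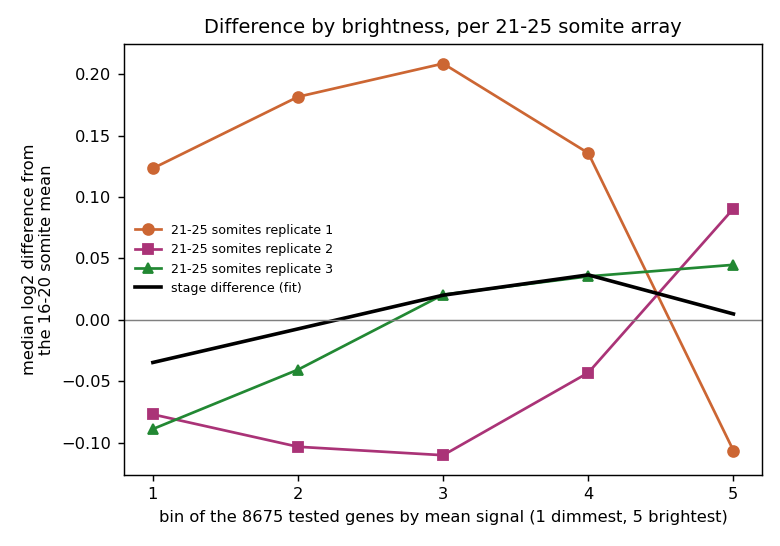
Median log2 difference from the mean of the 16-20 somite arrays (vertical axis) in 5 equal bins of the tested genes by mean signal (horizontal axis, dimmest to brightest), for each 21-25 somite array and for the stage difference of the fit (black). Replicate 1 runs from 0.12 in the dimmest bin through 0.21 in the middle one to -0.11 in the brightest. Replicate 2 runs the other way, from -0.08 through -0.11 to 0.09. The fitted stage difference, a mean over these arrays, stays between -0.03 and 0.04.

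Mitochondrial ribosomal proteins, which build the ribosomes that translate mitochondrial mRNAs, had the lowest median of these classes. Of 77 tested genes (of 78 on the array) 72 were lower at 21-25 somites, the median was -0.46, and 27 (35.1%) were lower at an unadjusted p under 0.05 against 0 higher. Class medians of the deviation from the 6-array mean were 0.15, 0.27 and 0.30 in the 16-20 somite arrays and -0.62, -0.13 and -0.03 in the 21-25 somite arrays, so all 3 later arrays lay below all 3 earlier ones, replicate 1 by the widest margin. Class deviations, here and below, are not adjusted for the level of an array. The median log2 signal of tested genes was 8.85 in 21-25 somites replicate 1, 8.51 in replicate 2 and 8.57 to 8.72 in the other arrays. Without 21-25 somites replicate 1 the class median, taken relative to all genes, was -0.28. Mrps35, of the small subunit, had signals of 874, 877 and 1021 in the 16-20 somite arrays and 429, 365 and 508 in the 21-25 somite arrays, a log2 difference of -1.05 ± 0.21. Mrpl12, a large-subunit protein that also binds the mitochondrial RNA polymerase, had signals of 817, 1293 and 1389 in the 16-20 somite arrays and 410.1, 386 and 656 in the 21-25 somite arrays (-1.23 ± 0.27). Neither gene's groups overlapped, and all the later arrays were low. Mrpl13 (-1.11 ± 0.30), Mrps25 (-0.81 ± 0.22) and Mrpl58, a peptide release factor built into the mitochondrial ribosome (-1.01 ± 0.28), also had groups without overlap. The shift came close to that of the cytosolic ribosomal proteins (-0.51 over 47 genes) and of the respiratory chain (-0.37 over 85).

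**Figure D2:**
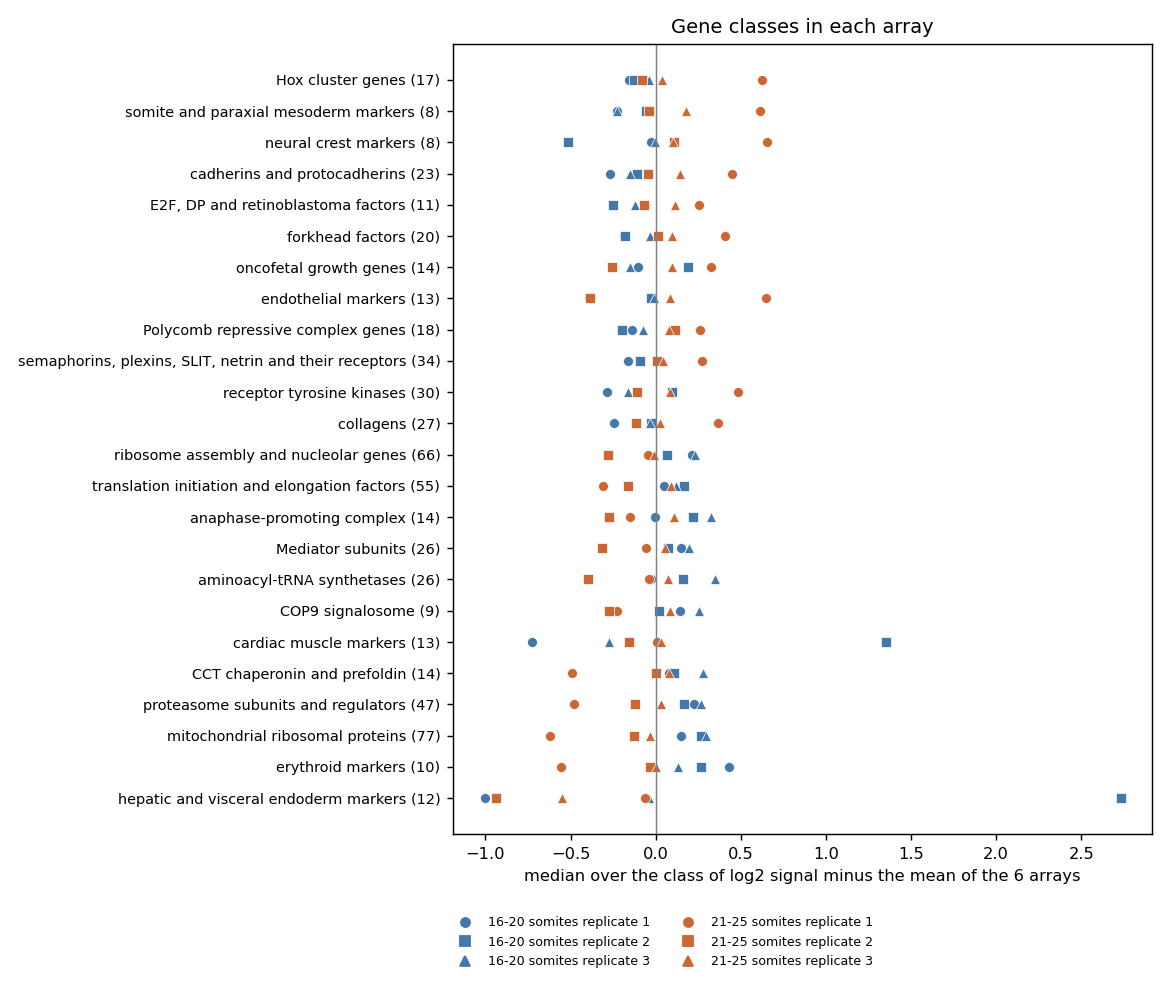
Each row is a gene class with its number of tested genes, and each symbol is the class median, in 1 array, of the log2 signal minus the mean of the 6 arrays (horizontal axis), blue for 16-20 and orange for 21-25 somites. In mitochondrial ribosomal proteins all orange symbols lie below all blue ones, 21-25 somites replicate 1 lies far from its stage in several classes (-0.62 in mitochondrial ribosomal proteins, 0.63 in Hox genes), and 16-20 somites replicate 2 reaches 2.73 in liver markers.

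The nucleolar genes that process ribosomal RNA and assemble ribosomes were lower as well. Of 66 tested genes 51 were lower, with a median of -0.22, and 9 (13.6%) were lower at an unadjusted p under 0.05 against 0 higher. Class deviations were 0.21, 0.07 and 0.23 in the earlier and -0.04, -0.28 and -0.01 in the later arrays, which did not overlap. Replicate 2 was the lowest here, without adjustment for the level of its array, which was also the lowest (8.51). The median relative to all genes ran from -0.32 to -0.14 when single arrays were left out, the weakest without 16-20 somites replicate 1. Fbl, the fibrillarin methyltransferase that modifies ribosomal RNA, had signals of 3512, 4599.6 and 4277 in the 16-20 somite arrays and 1559, 461 and 2589 in the 21-25 somite arrays (-1.71 ± 0.46). Its groups did not overlap, although replicate 2 was far below the rest, and without it the difference was -1.02. Nol12, a nucleolar RNA-binding protein, had signals of 682, 1164 and 892 in the 16-20 somite arrays and 249, 327 and 497 in the 21-25 somite arrays (-1.31 ± 0.36), and all 3 later arrays were low. Imp4 (-0.73 ± 0.21), Rrp15 (-0.78 ± 0.23) and Rrp12 (-0.76 ± 0.22), which act in maturation of the ribosomal subunits, had groups without overlap.

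Aminoacyl-tRNA synthetases, which attach amino acids to tRNAs, had 18 of 26 genes lower and a median of -0.25, with 5 (19.2%) lower and 0 higher at an unadjusted p under 0.05. Class deviations were -0.03, 0.16 and 0.35 at 16-20 and -0.04, -0.40 and 0.07 at 21-25 somites, so the groups overlapped. This median did not rest on the narrow-range array, since it was -0.36 relative to all genes without it. Aimp1, a scaffold protein of the synthetase complex, had signals of 2119.7, 2080.0 and 1941 in the 16-20 somite arrays and 752, 592 and 1465 in the 21-25 somite arrays (-1.21 ± 0.34). Sars, the seryl-tRNA synthetase, had signals of 918, 1081 and 1448 in the 16-20 somite arrays and 657, 252 and 674 in the 21-25 somite arrays (-1.18 ± 0.33). In both the later arrays lay below all earlier ones, with replicate 2 lowest. The scaffold gene Aimp2 (-0.67 ± 0.20), the arginyl synthetase Rars (-0.61 ± 0.24) and the mitochondrial threonyl synthetase Tars2 (-0.60 ± 0.24) differed in the same direction, but a further probe set of Tars2 gave 0.24.

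Translation initiation and elongation factors were mixed, with 35 of 55 genes lower, a median of -0.23, and 11 (20%) lower but 4 (7.27%) higher at an unadjusted p under 0.05. The median was -0.066 relative to all genes without 21-25 somites replicate 1, so most of it rested on that array. Lower members included Eef1d, an exchange factor of elongation, with signals of 6889.9, 8118 and 9058 in the 16-20 somite arrays and 2184, 4034 and 4823 in the 21-25 somite arrays (-1.19 ± 0.30), although one of its further probe sets gave 0.07 and another -0.24. Subunits of the initiation factor eIF3 were among the lower members, namely Eif3k (-1.24 ± 0.35), Eif3b (-0.79 ± 0.24) and Eif3i (-0.70 ± 0.23), each with groups that did not overlap. Eif4a2, an RNA helicase of the cap-binding complex, ran the other way with 1663, 1633 and 2435 in the 16-20 somite arrays and 5480.3, 2870.5 and 2862 in the 21-25 somite arrays (0.91 ± 0.30). The other higher members were Eef1a2 (1.07), Eif4e3 (0.68) and Eif4b (0.45), chosen for naming after their values were seen.

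Many genes of these classes carry an ETS-type sequence close to the start. RefSeq promoter windows (build GRCm38.p6) cover 250 bases before to 50 after a gene's start and were found for 7045 of the 8675 tested genes, with 9056 windows. The letters CCGGAAG, the core of an ETS factor site, searched on both strands, stood in 8.86% of all windows and in 17.1% of those of tested genes. The share was 32.9% for mitochondrial ribosomal proteins (73 windows), 41.9% for proteasome genes (43 windows), 41% for nucleolar genes (61 windows) and 36.8% for synthetases (19 windows). It was 0% for collagens (23 windows), cadherins (16 windows), forkhead factors (17 windows) and Hox genes (10 windows), whose medians were above 0. The split was not general, since hepatic (13 windows), erythroid (8 windows) and cardiac markers (16 windows), with medians below 0, also stood at 0%. Of classes with medians above 0, the vacuolar proton pump stood at 36.4% (11 windows), the cullin class at 23.4% (94 windows), cohesin and condensin at 22.2% (18 windows), PI3K, AKT and mTOR genes at 20.8% (48 windows), RNF and TRIM ligases at 19.3% (83 windows) and Polycomb genes at 9.09% (22 windows). DEAD-box and DEAH-box helicases, with a median of 0.05, stood at 37.2% (43 windows). Coat, tether and fusion proteins of the Golgi, with a median of 0.04, stood at 33.3%. Shares above that of mitochondrial ribosomal proteins were thus also found in classes with medians slightly above 0. Across all tested genes with a window, 1419 genes with the letters had a median log2 difference of -0.06 and 43.8% of them were higher at 21-25 somites, while 5626 genes without them had a median of 0.02 and 51.7% were higher. For the NRF1 palindrome the medians with and without it were both 0.00. The motifs were chosen with results of these data known, and a match describes letters, not binding. Over the 100 bases before the start, 64 named genes had 1 window, of which 3 held CCGGAAG (Sars, Anapc16 and Bmp4, with a difference of -0.02) and 4 the NRF1 palindrome (Mrpl12, Med11, Ezh1 and Med26, with one of 0.46). The other 57 held neither, most named members of the lower classes included. Examples that hold a motif follow, 5' to 3' on the gene's strand, with capitals for CCGGAAG or its reverse complement (Sars, Anapc16) and for the NRF1 palindrome (Mrpl12, Med11, Ezh1). The first 4 genes had smaller and Ezh1 had larger signals at 21-25 somites.
Sars: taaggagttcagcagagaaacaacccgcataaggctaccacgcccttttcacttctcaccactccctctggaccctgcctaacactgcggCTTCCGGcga
Anapc16: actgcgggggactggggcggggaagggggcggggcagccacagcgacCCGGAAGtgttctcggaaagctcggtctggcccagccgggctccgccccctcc
Mrpl12: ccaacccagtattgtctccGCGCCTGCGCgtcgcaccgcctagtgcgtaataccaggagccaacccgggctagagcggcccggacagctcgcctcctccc
Med11: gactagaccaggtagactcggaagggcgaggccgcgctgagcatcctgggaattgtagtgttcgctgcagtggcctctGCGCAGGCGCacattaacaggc
Ezh1: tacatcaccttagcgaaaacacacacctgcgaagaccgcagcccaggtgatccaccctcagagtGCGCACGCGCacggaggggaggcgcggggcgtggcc
These stretches lie at chr3:108445260-108445359, minus strand (Sars), chr10:60003136-60003235, minus strand (Anapc16), chr11:120484537-120484636, plus strand (Mrpl12), chr11:70451818-70451917, plus strand (Med11) and chr11:101226464-101226563, minus strand (Ezh1), each directly before the annotated start of its gene.

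The proteasome, the complex that degrades ubiquitin-tagged proteins, followed the ribosomal classes. Of 47 tested genes 40 were lower, the median was -0.40, and 11 (23.4%) were lower at an unadjusted p under 0.05 against 1 higher. Class deviations were 0.23, 0.17 and 0.27 at 16-20 and -0.48, -0.12 and 0.03 at 21-25 somites, without overlap, and the median relative to all genes was -0.18 without 21-25 somites replicate 1. Psma4, of the catalytic core particle, had signals of 2308, 2532 and 2758 in the 16-20 somite arrays and 1171, 1435 and 1554 in the 21-25 somite arrays (-0.86 ± 0.20), a narrow spread in each stage. Psmc3, an ATPase of the regulatory particle, had signals of 2764, 4148 and 4930.1 in the 16-20 somite arrays and 1661, 1036 and 2328 in the 21-25 somite arrays (-1.26 ± 0.31). Psmd4, which binds ubiquitin chains, had signals of 2121, 3088 and 3461 in the 16-20 somite arrays and 1226, 663 and 1844 in the 21-25 somite arrays (-1.28 ± 0.33). The groups of these 3 genes did not overlap, although 21-25 somites replicate 3 of Psmc3 and Psmd4 lay near the lowest earlier array. A second probe set of Psmd4 gave -0.51. Psmd13, of the lid of the regulatory particle, had signals of 2077, 2429 and 2632 in the 16-20 somite arrays and 439, 326 and 1673 in the 21-25 somite arrays (-1.87 ± 0.47), so 21-25 somites replicate 3 lay near the earlier arrays here too. Its second probe set gave -0.89. Without 21-25 somites replicate 3 Psmd13 had a difference of -2.56 and an adjusted p of 0.0137 by limma. The chaperone Psmg3, which helps assemble the core, was lower too (-1.06 ± 0.31). The exception, named after its values were seen, was the core subunit Psmb7 with 355, 161 and 1047 in the 16-20 somite arrays and 1074, 922 and 1018 in the 21-25 somite arrays (1.28 ± 0.52).

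**Figure D3:**
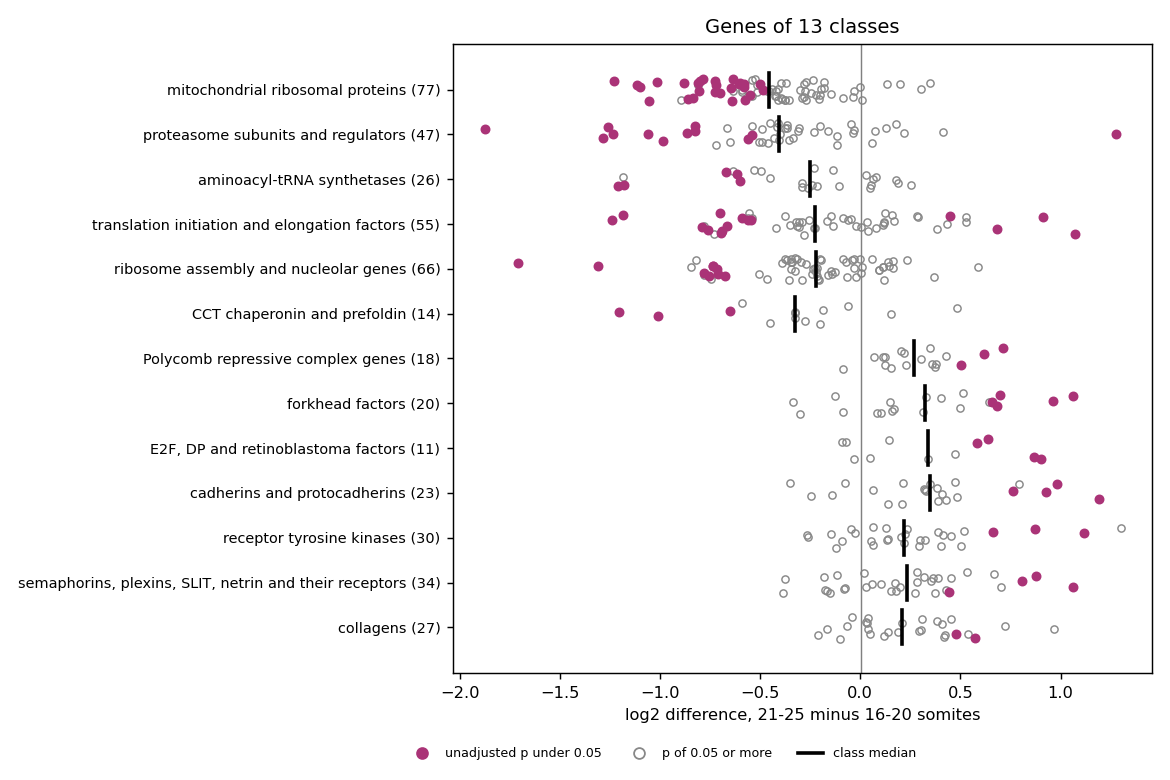
Log2 differences of single genes (horizontal axis, 21-25 minus 16-20 somites) in 13 classes (rows, with the number of tested genes); filled points had an unadjusted p under 0.05, bars are class medians and the grey line is the median of all tested genes. In mitochondrial ribosomal proteins 72 of 77 points lie left of 0, and in Polycomb genes 17 of 18 lie right of it.

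Smaller complexes of protein folding and cell-cycle or transcriptional control had medians below 0. The CCT chaperonin and prefoldin, which fold actin and tubulin, had 12 of 14 genes lower and a median of -0.33, with 3 lower at an unadjusted p under 0.05. Its members Pfdn6 (-1.01 ± 0.40) and Cct7 (-0.65 ± 0.28) had groups that did not overlap, and Pfdn5 (-1.21 ± 0.50) had groups that did. This median was -0.14 relative to all genes without 21-25 somites replicate 1. The COP9 signalosome, which removes NEDD8 from cullin ubiquitin ligases, had 7 of 9 genes lower and a median of -0.26, but -0.069 without that array. Its catalytic subunit Cops5 had signals of 2873, 2331 and 3062 in the 16-20 somite arrays and 1811, 1537 and 2485 in the 21-25 somite arrays (-0.52 ± 0.24), with overlapping groups. Cops6 had a difference of -0.63 ± 0.26 and a second probe set at 0.09.

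The anaphase-promoting complex, the ubiquitin ligase that ends mitosis, had 12 of 14 genes lower and a median of -0.23. Its genes did not all run one way, because the scaffold subunit Anapc1 had signals of 1229, 1666 and 1341 in the 16-20 somite arrays and 2028, 2794 and 1707 in the 21-25 somite arrays (0.60 ± 0.23) while the small subunit Anapc16 had 1093, 1035 and 1197 in the 16-20 somite arrays and 386, 726 and 931 in the 21-25 somite arrays (-0.76 ± 0.30). The further probe sets of Anapc16 gave 0.08, -0.01 and -0.48. Mediator, the coactivator that links transcription factors to RNA polymerase II, had 19 of 26 subunits lower and a median of -0.23. Med8 had signals of 1878, 2557 and 2315 in the 16-20 somite arrays and 961, 687 and 1831 in the 21-25 somite arrays (-1.05 ± 0.31), and the dim Med11 had 133, 169 and 132 in the 16-20 somite arrays and 15.7, 14.6 and 116 in the 21-25 somite arrays (-1.45 ± 0.44), where replicate 3 lay close to the earlier arrays. Med23 was higher, with 473, 482 and 585 in the 16-20 somite arrays and 1073, 751 and 613 in the 21-25 somite arrays (0.61 ± 0.24). Leaving out 21-25 somites replicate 2 took the Mediator median to -0.12 relative to all genes, and leaving out 16-20 somites replicate 1 took it to -0.15.

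Some classes of chromatin and transcription genes had medians above 0, among them Polycomb, forkhead, E2F and Hox genes. Others lay near or below that of all genes, with 0.01 for histone acetyltransferases and deacetylases (36 genes), 0.03 for SOX factors (12), -0.14 for KLF and SP factors (16) and -0.16 for histone genes (12). Polycomb repressive complex genes, which keep developmental genes silent, were higher in 17 of 18 genes, with a median of 0.27 and 3 (16.7%) higher against 0 lower at an unadjusted p under 0.05. Class deviations were -0.14, -0.20 and -0.07 at 16-20 and 0.26, 0.11 and 0.08 at 21-25 somites, without overlap. The median relative to all genes lay between 0.23 and 0.34 whichever array was left out. Ezh1, a histone H3K27 methyltransferase, had signals of 161, 171 and 145 in the 16-20 somite arrays and 346, 244 and 251 in the 21-25 somite arrays (0.71 ± 0.23), although a dimmer second probe set gave -0.15. Jarid2, which helps recruit the complex, had signals of 1809.9, 1408 and 1764 in the 16-20 somite arrays and 2416, 2336 and 2309.5 in the 21-25 somite arrays (0.51 ± 0.20, a second probe set 0.07). Bmi1, of the ubiquitin ligase complex, had signals of 1226, 559 and 815 in the 16-20 somite arrays and 1184, 1388 and 1275 in the 21-25 somite arrays (0.62 ± 0.27). The groups of Ezh1 and Jarid2 did not overlap, while 16-20 somites replicate 1 of Bmi1 reached the later arrays. Asxl1 (0.37 ± 0.19) and Mtf2 (0.38 ± 0.21) had smaller differences with groups that did not overlap.

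Forkhead transcription factors were higher in 16 of 20 genes, with a median of 0.32 and 5 (25%) higher against 0 lower at an unadjusted p under 0.05. Foxk2, a regulator of metabolism and autophagy genes, had signals of 410.2, 331 and 381 in the 16-20 somite arrays and 620.4, 1299.9 and 650.3 in the 21-25 somite arrays (1.06 ± 0.27), but its 2 further probe sets gave -0.23 and -0.45. Foxc2, a factor of paraxial mesoderm and vessels, had signals of 174, 182 and 140.3 in the 16-20 somite arrays and 573, 241 and 293 in the 21-25 somite arrays (0.96 ± 0.33). Foxm1, a driver of mitotic genes, had signals of 349.5, 409.5 and 362 in the 16-20 somite arrays and 907, 517 and 494 in the 21-25 somite arrays (0.68 ± 0.25, a second probe set 0.01). In each of them all 3 later arrays lay above the earlier ones, with replicate 2 highest for Foxk2 and replicate 1 for the others. Foxo1 (0.66 ± 0.27, further probe sets -0.29 and 0.51) and Foxn2 (0.70 ± 0.31) completed the 5. Leaving out 16-20 somites replicate 2 took the class median to 0.19 relative to all genes.

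The E2F, DP and retinoblastoma genes, which time entry into DNA synthesis, had 8 of 11 members higher, a median of 0.34 and 4 higher at an unadjusted p under 0.05. E2f8, a repressor of the family, had signals of 778, 588 and 623 in the 16-20 somite arrays and 1450.1, 1153 and 1096 in the 21-25 somite arrays (0.87 ± 0.28), and E2f6, a repressor that works with Polycomb proteins, had 863, 807 and 689 in the 16-20 somite arrays and 1155, 1445 and 996 in the 21-25 somite arrays (0.58 ± 0.21). All 3 later arrays were above the earlier ones for both. E2f5 (0.64 ± 0.26) and the dim Lin9 (0.90 ± 0.36) were the others. The class median was 0.11 relative to all genes without 21-25 somites replicate 1 and 0.18 without 16-20 somites replicate 2.

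Hox genes, which set position along the body axis, had the highest class median, 0.44, with 13 of 17 tested genes higher, and only 17 of the 31 on the array passed the filter on low signal. The median rested largely on one array, since class deviations were -0.16, -0.13 and -0.04 at 16-20 and 0.63, -0.08 and 0.04 at 21-25 somites. It was 0.25 relative to all genes without 21-25 somites replicate 1 and 0.19 without 16-20 somites replicate 2. Single genes ran both ways. The anterior gene Hoxc4 had signals of 338, 273 and 445 in the 16-20 somite arrays and 814, 566 and 481 in the 21-25 somite arrays (0.77 ± 0.28), while the posterior gene Hoxa9 had 261, 339 and 441 in the 16-20 somite arrays and 249.7, 40.9 and 232 in the 21-25 somite arrays (-1.12 ± 0.45), whose second probe set gave 0.90. Hoxb1 (0.50 ± 0.29), Hoxa3 (0.61 ± 0.37) and the dim Hoxa4 (0.68 ± 0.43) had groups that overlapped.

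Among classes of the cell surface cadherins had the highest median, while immunoglobulin-type adhesion molecules (0.02 over 33 genes), tight junction, desmosome and polarity genes (0.04 over 56) and integrins with focal adhesion genes (0.06 over 26) lay near all genes. Cadherins and protocadherins, calcium-dependent adhesion molecules, were higher in 19 of 23 tested genes, with a median of 0.35 and 4 (17.4%) higher against 0 lower at an unadjusted p under 0.05, while 59 were on the array and most were too dim to be tested. Of the 23, 2 had all earlier signals under the filter level of 80.1 and passed it through the later arrays, and Cdh23, with 15.6, 41 and 72.6 in the 16-20 somite arrays and 165, 80.6 and 135 in the 21-25 somite arrays, is 1 of the 4, so these counts describe the tested genes only. Class deviations were -0.27, -0.11 and -0.15 and 0.45, -0.05 and 0.15, and the median was 0.16 relative to all genes without 21-25 somites replicate 1. Cdh2, N-cadherin of mesenchyme and neural tissue, had signals of 592, 402 and 479 in the 16-20 somite arrays and 884, 957 and 704 in the 21-25 somite arrays (0.76 ± 0.22), and its second probe set gave 0.82. Celsr3, a seven-pass cadherin of planar polarity, had signals of 70.6, 112 and 68.5 in the 16-20 somite arrays and 204, 152 and 184 in the 21-25 somite arrays (0.93 ± 0.25). Cdh2 and Celsr3 were high in all later arrays. Cdh1, the epithelial cadherin of endoderm, had 174, 408 and 175 in the 16-20 somite arrays and 437, 79.3 and 278 in the 21-25 somite arrays (-0.08 ± 0.48), so its groups overlapped widely. Cdh23 had a difference of 1.19 ± 0.37 and the dim Clstn3 one of 0.98 ± 0.43.

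Semaphorins, plexins, SLITs, netrins and their receptors, guidance cues for migrating cells and axons, were higher in 25 of 34 genes with a median of 0.24, and 4 were higher at an unadjusted p under 0.05 against 0 lower. A ligand and its receptor were both among them. The secreted ligand Slit2 had signals of 904, 851 and 595 in the 16-20 somite arrays and 1737, 981 and 1499 in the 21-25 somite arrays (0.81 ± 0.28), and the receptor Robo1 had 320.2, 224 and 204 in the 16-20 somite arrays and 741, 456 and 307 in the 21-25 somite arrays (0.88 ± 0.33). For Slit2 all later arrays were above the earlier ones, and for Robo1 replicate 3 lay within their range. Plxnd1, a vessel-guidance receptor, was below the filter level in all earlier arrays, with 13.4, 67.2 and 78.3 in the 16-20 somite arrays and 237, 64.6 and 121 in the 21-25 somite arrays (1.06 ± 0.44). The cytoplasmic mediators Dpysl4 (0.44 ± 0.20) and Dpysl3 (0.67 ± 0.32) had groups without overlap, but the second probe set of Dpysl3 gave -0.19. Without 16-20 somites replicate 2 the class median was 0.13 relative to all genes.

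Receptor tyrosine kinases were higher in 23 of 30 genes, with a median of 0.22 and 3 higher at an unadjusted p under 0.05 against 0 lower. Pdgfra, the platelet-derived growth factor receptor of mesenchyme, had signals of 1696, 1428 and 1045 in the 16-20 somite arrays and 3293, 2288 and 2109.7 in the 21-25 somite arrays (0.87 ± 0.28), while a further probe set gave -0.13. Kit, the stem cell factor receptor, had signals of 175, 235 and 147 in the 16-20 somite arrays and 418, 287 and 232 in the 21-25 somite arrays (0.66 ± 0.29), and Axl had 21.3, 99 and 27.3 in the 16-20 somite arrays and 170.2, 106 and 99.2 in the 21-25 somite arrays (1.12 ± 0.41). Replicate 1 was the highest later array in all 3 genes, and the class median ran from 0.15 without it to 0.39 without replicate 2, relative to all genes. The FGF receptors were less apart, with Fgfr1 at 0.52 ± 0.27 and Fgfr2, the receptor for lung FGF10, at 0.32 ± 0.26 and a second probe set of it at -0.07.

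Collagens were higher in 22 of 27 genes with a median of 0.21, and the genes with the smallest p were those of basement membrane. Col4a1, of the network under epithelia, had signals of 2086, 1749.9 and 1819.5 in the 16-20 somite arrays and 3744, 2125 and 2779 in the 21-25 somite arrays (0.57 ± 0.24), and Col18a1 had 2546, 3025 and 3063 in the 16-20 somite arrays and 4130.3, 4743 and 3269 in the 21-25 somite arrays (0.48 ± 0.21), whose second probe set gave -0.35. Other basement membrane genes, named after their values were seen, were Npnt (0.83), Agrn (0.73), Nid1 (0.70) and Lama2 (0.58). Together with Col4a1 they made 5 of 25 laminin, nidogen and related genes higher at an unadjusted p under 0.05 against 0 lower, where the median was 0.09. The collagen median depended on 16-20 somites replicate 1, without which it was 0.048 relative to all genes.

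The oncofetal growth genes, a list of embryonic growth regulators, split, with 8 of 14 higher, a median of 0.31, and 2 in each direction at an unadjusted p under 0.05. Hmga2, a chromatin protein of embryonic growth, had signals of 8364, 4735 and 7755 in the 16-20 somite arrays and 10395, 11834 and 10141 in the 21-25 somite arrays (0.67 ± 0.25), and E2f5 is given above. Igf2, the fetal growth factor, ran the other way with 3929, 8794 and 5765 in the 16-20 somite arrays and 3369, 2034 and 4815 in the 21-25 somite arrays (-0.86 ± 0.34), as did the pluripotency-associated Dppa4 with 122, 101 and 149.7 in the 16-20 somite arrays and 79.5, 74.7 and 49.2 in the 21-25 somite arrays (-0.68 ± 0.26). All later signals of Dppa4 lay under the filter level of 80.1. Mycn, a driver of ribosome production and growth, had 3359, 1780.4 and 3621 in the 16-20 somite arrays and 3962, 5961 and 3655 in the 21-25 somite arrays (0.66 ± 0.31). The class median was -0.23 relative to all genes when the probe sets of a gene were averaged, and 0.09 without 21-25 somites replicate 1.

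In 3 processes a class of core machinery and some classes of regulators had medians on opposite sides of 0. In mRNA splicing, core factors of the snRNPs had 40 of 59 genes lower (median -0.17, 9 lower and 2 higher at an unadjusted p under 0.05), while SR proteins, hnRNPs and other regulators of splice choice had 67 of 95 higher (median 0.14, 12 higher and 1 lower). In protein turnover the proteasome stood at -0.40, whereas RNF and TRIM ubiquitin ligases had 53 of 74 genes higher (median 0.19) and cullin, F-box, BTB and HECT ligases 62 of 90 (median 0.13, 8 higher and 0 lower at that p). Deubiquitinases stood at 0.14 (48 genes). Other regulators of turnover did not lie above 0, with -0.23 for the anaphase-promoting complex, -0.26 for the COP9 signalosome and -0.01 for ubiquitin-activating and conjugating enzymes (33 genes). In transcription, RNA polymerase subunits and general factors had 51 of 78 genes lower (median -0.12), whereas C2H2 zinc finger factors had 104 of 151 higher (median 0.18). The difference within each pair was not tested, and other classes of transcription factors lay near or below 0, as given above. Relative to all genes, the RNF and TRIM median was 0.098 and the C2H2 median 0.088 without 21-25 somites replicate 1. As single arrays were left out, the splicing regulators ran from 0.077 to 0.26, the core splicing factors from -0.32 to -0.13, the cullin class from 0.092 to 0.19 and the RNA polymerase class from -0.18 to -0.058.

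Several classes of metabolism had medians below 0. Glycolysis had 13 of 19 genes lower (median -0.14), the tricarboxylic acid cycle 14 of 23 (-0.16), amino acid metabolism 16 of 22 (-0.19), and antioxidant and glutathione genes 34 of 43 (-0.20), whereas fatty acid (-0.02 over 45 genes) and sterol genes (-0.05 over 20) lay nearer to 0. The tricarboxylic acid cycle median was -0.016 relative to all genes without 21-25 somites replicate 2, and the glycolysis median ran from -0.30 to -0.098 as single arrays were left out. Genes of DNA replication had a median of -0.08 over 52, and kinetochore and spindle genes one of 0.02 over 67, so neither stood far from all genes. Of 99 classes without the marker lists and the reference classes, 66 had a median above that of all genes and 33 one below.

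Signalling pathways of foregut patterning had medians above or near 0. The BMP and TGF-beta pathway had 31 of 47 genes higher (median 0.14), with 7 higher and 0 lower at an unadjusted p under 0.05. Its median relative to all genes was 0.061 without 21-25 somites replicate 1 and 0.32 without replicate 2. Intracellular WNT transducers had 16 of 26 higher (median 0.19, 4 higher and 0 lower at that p), and the 4, named after their values were seen, were Tcf7l2 (1.15), Tcf7l1 (1.04), Tle4 (0.85) and Axin2 (0.65), a direct WNT target. Tcf7l2 was under the filter level in all earlier arrays, and the median of the class ran from 0.068 to 0.31 as single arrays were left out. Signs of the smaller medians that follow were not all kept when single arrays were left out. WNT ligands and receptors had a median of 0.05 over 30 genes, FGF genes 0.07 over 21, Notch genes 0.10 over 34, and Hedgehog genes -0.02 over 13. Genes of retinoic acid synthesis, binding and receptors were the pathway on the lower side, with 18 of 26 lower and a median of -0.13. Homeobox factors outside the Hox clusters had 9 of 51 higher and 0 lower at that p (median 0.15). Of the 9, 2 (Six5 and Zfhx4) had all earlier signals under the filter level, so this count describes the tested genes only.

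The 15 single genes of smallest p on the higher side had varied roles. Lifr, a receptor for leukaemia inhibitory factor, had signals of 392, 386 and 290.4 in the 16-20 somite arrays and 1151, 888 and 904 in the 21-25 somite arrays (1.40 ± 0.24), the smallest unadjusted p of all. Rfx5, a factor of MHC class II promoters, had 681, 569 and 920.3 in the 16-20 somite arrays and 2054, 2181 and 1298 in the 21-25 somite arrays (1.31 ± 0.26), and the zinc finger repressor Zbtb1 had 244, 196 and 296 in the 16-20 somite arrays and 805, 734 and 462 in the 21-25 somite arrays (1.33 ± 0.26). Every later array exceeded every earlier one by a wide margin in these 3. The tetraspanin Cd82 had 66.4, 65.7 and 195 in the 16-20 somite arrays and 588, 335 and 356 in the 21-25 somite arrays (1.83 ± 0.34), but its second probe set gave -0.59. Gcg, the proglucagon gene of the first endocrine cells, had 59.6, 59.2 and 78.4 in the 16-20 somite arrays and 246, 176 and 284 in the 21-25 somite arrays (1.49 ± 0.31), so it stood above the filter level of 80.1 in all later arrays and below it in all earlier ones. Arhgap21 had 1162, 441 and 593 in the 16-20 somite arrays and 2657, 1966 and 1419 in the 21-25 somite arrays (1.50 ± 0.33), and its second probe set gave 0.20.

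Ccnd2, a D-type cyclin of the early cell cycle, had signals of 1608, 1275 and 1461 in the 16-20 somite arrays and 3568, 3073 and 2334 in the 21-25 somite arrays (1.02 ± 0.23), while its 5 further probe sets gave -0.31 to 0.95. Fzd6, a WNT receptor, had 210.0, 202 and 234 in the 16-20 somite arrays and 380.4, 536 and 455 in the 21-25 somite arrays (0.99 ± 0.22), with a tight spread in the earlier arrays. The ubiquitin ligase Rnf157 (1.34 ± 0.27), the membrane-traffic gene Tbc1d23 (1.08 ± 0.23), AW549877 (1.15 ± 0.25) and Tm6sf1 (1.12 ± 0.26) also had groups without overlap. The homeobox gene Six5 (1.58 ± 0.36), the adhesion receptor Adgrv1 (1.67 ± 0.38) and Phyhipl (1.47 ± 0.32) were dim, with every earlier signal at 67.1 or less, so their differences rest on low signals.

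**Figure D4:**
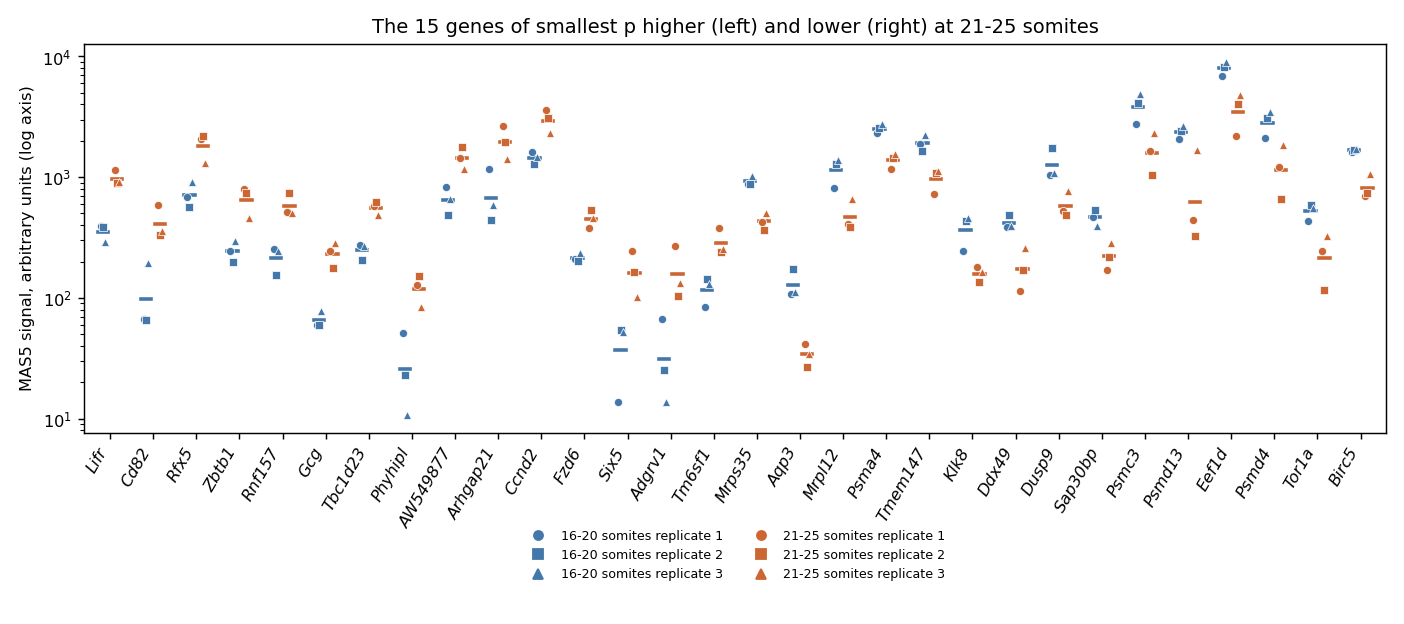
MAS5 signals (vertical log axis, arbitrary units) of the 15 genes of smallest p in each direction, in the 3 arrays of 16-20 (blue) and of 21-25 somites (orange), with bars at the mean on the log2(signal + 26.1) scale. The groups do not overlap in any of the 30 genes, whose choice by p fixes this.

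On the lower side, 7 of the 15 genes of smallest p belonged to the classes above: Mrps35, Mrpl12, Psma4, Psmc3, Psmd13, Psmd4 and Eef1d. Aqp3, a water and glycerol channel of epithelia, had signals of 108, 173 and 111 in the 16-20 somite arrays and 41.8, 26.8 and 34.5 in the 21-25 somite arrays (-1.36 ± 0.28), so it was under the filter level in all later arrays. Birc5, survivin of the chromosomal passenger complex, had 1618, 1685 and 1719.5 in the 16-20 somite arrays and 692, 742 and 1055 in the 21-25 somite arrays (-1.01 ± 0.26), with a narrow spread in the earlier stage. Dusp9, a phosphatase that inactivates MAP kinases, had 1038, 1754 and 1083 in the 16-20 somite arrays and 523, 483 and 775 in the 21-25 somite arrays (-1.08 ± 0.26), and its further probe sets gave -0.59 and -1.24. Tmem147, of the endoplasmic reticulum membrane, had 1878, 1657 and 2220.5 in the 16-20 somite arrays and 726, 1089.9 and 1127 in the 21-25 somite arrays (-0.97 ± 0.23), and Ddx49, a DEAD-box helicase, had 389.5, 482 and 396 in the 16-20 somite arrays and 114, 169.6 and 258 in the 21-25 somite arrays (-1.17 ± 0.28). The later arrays were low throughout. The protease Klk8 (-1.08 ± 0.26), Sap30bp (-0.99 ± 0.24, a second probe set -0.02) and the chaperone-like ATPase Tor1a (-1.20 ± 0.31) ran the same way. For all 30 genes the adjusted p was 0.314 by limma.

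Of 40 chosen genes of foregut, lung, liver and neighbouring tissue, 34 were tested, 20 were higher and 14 lower, and 5 had an unadjusted p under 0.05, Cdh2 among the higher and 4 among the lower. Crabp1, a cellular retinoic acid-binding protein, had signals of 1505, 851 and 1633 in the 16-20 somite arrays and 536, 178 and 811 in the 21-25 somite arrays (-1.51 ± 0.43), and Crabp2 had 854, 978 and 814 in the 16-20 somite arrays and 475, 423 and 732 in the 21-25 somite arrays (-0.71 ± 0.28). Wnt2, a ligand of the mesoderm around the future lung, had 852, 1346 and 1187 in the 16-20 somite arrays and 678, 686 and 645 in the 21-25 somite arrays (-0.71 ± 0.22). In these 3 the later arrays lay below all earlier ones, with the 21-25 somite arrays of Wnt2 close to each other. Aldh1a2, which makes retinoic acid, had overlapping groups (0.36 ± 0.39), as did the receptor gene Rarb (-0.02 ± 0.24).

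Of the regulators of foregut endoderm and mesoderm given next, all but Foxa2 had overlapping groups, and Sox2 had the highest difference of the 34 tested genes. Foxa2, a pioneer factor of endoderm, had 562, 707 and 635 in the 16-20 somite arrays and 489, 459.9 and 543 in the 21-25 somite arrays (-0.33 ± 0.22), slightly lower without overlap, while Foxa1 had 3123, 1383 and 1774 in the 16-20 somite arrays and 2991, 1724 and 2041 in the 21-25 somite arrays (0.15 ± 0.30). Sox2, the factor of dorsal foregut and future oesophagus, had 646, 182 and 319.9 in the 16-20 somite arrays and 859, 517 and 508 in the 21-25 somite arrays (0.80 ± 0.37), and without 16-20 somites replicate 2 its difference was 0.40. Sox17 (0.34 ± 0.26), the stomach mesenchyme factor Barx1 (0.58 ± 0.30), the pancreatic Pdx1 (0.40 ± 0.34), Gata4 (0.16 ± 0.24), Gata6 (0.07 ± 0.22), Bmp4 (-0.02 ± 0.34) and the Hedgehog receptor and target Ptch1 (0.34 ± 0.24) had overlapping groups. The limb and lung mesoderm factor Tbx5 (0.04 ± 0.48) and the Hedgehog effector Gli1 (-0.03 ± 0.35) had differences near 0 with 21-25 somites replicate 2 lowest of the 6 arrays.

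Defining genes of the lung field were not measured above the filter. Nkx2-1, the earliest lung and thyroid factor, had signals of 33.3, 10.6 and 49.5 at 16-20 somites and 98.6, 18.8 and 39.8 at 21-25 somites, and Shh, the endodermal Hedgehog ligand, had 25.7, 5.8 and 38.3 at 16-20 somites and 17.6, 11.6 and 5 at 21-25 somites. Fgf10, Tbx4, Foxf1 and Wnt2b were also below it. The remaining foregut endoderm markers, 13 of 15, passed the filter, 5 higher and 8 lower. Summed over all 15, Shh and Nkx2-1 included, signals were 8162, 6957 and 7208 at 16-20 and 9841, 6274 and 7143 at 21-25 somites.

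**Figure D5:**
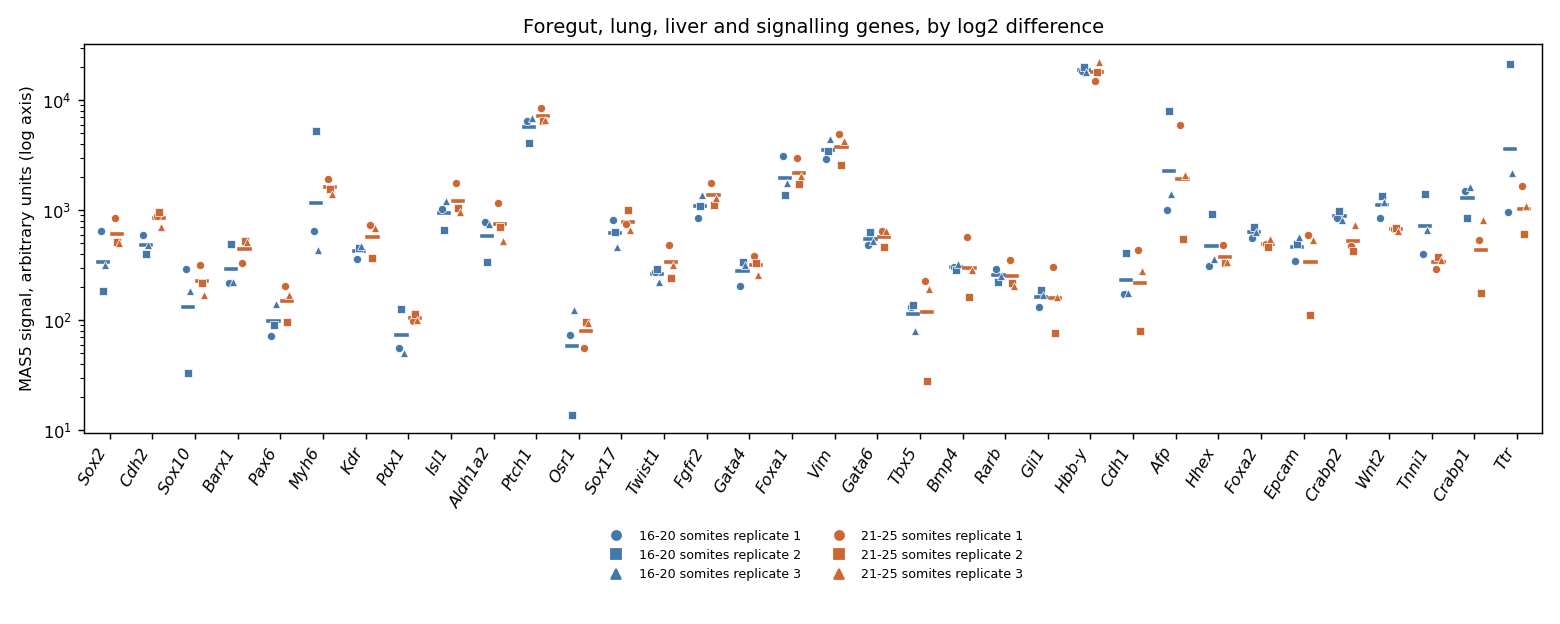
MAS5 signals (vertical log axis, arbitrary units) of the 34 tested genes chosen for foregut, lung, liver and neighbouring tissue, ordered by log2 difference, in the 3 arrays of 16-20 (blue) and of 21-25 somites (orange), with bars at the mean on the log2(signal + 26.1) scale. Most groups overlap, Crabp1 and Wnt2 are low in all 21-25 somite arrays, and Ttr reaches 21559 in 16-20 somites replicate 2.

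Some markers of neighbouring tissues were high or low in single arrays, and their part in the class results was not tested. Hepatic and visceral endoderm markers had 11 of 12 tested genes lower and a median of -0.91. Summed signals, here and for the lists below, are over all markers of a list on the array, those under the filter level included. For the hepatic list they were 2835, 43395 and 5239 at 16-20 and 9944, 2169 and 4436 at 21-25 somites. The difference rested on 16-20 somites replicate 2, without which the median was -0.09 relative to all genes. Ttr, the thyroid hormone carrier transthyretin, had 967, 21559 and 2185 in the 16-20 somite arrays and 1646, 608 and 1102 in the 21-25 somite arrays, and the apolipoproteins Apoc2 (9.7, 1282 and 159.5 in the 16-20 somite arrays and 20.4, 22.1 and 5.5 in the 21-25 somite arrays) and Apoa4 (32.4, 1317 and 28.9 in the 16-20 somite arrays and 26.3, 21 and 24.1 in the 21-25 somite arrays) were highest in that array, although Apoc2 was also above the others in 16-20 somites replicate 3. The summed signals of cardiac muscle markers were 4297, 20663 and 5300.5 and 6946, 6144 and 6819, and their median turned from -0.28 to 0.19 relative to all genes without the same array. Tnni1, slow troponin I, had 396, 1399 and 658 in the 16-20 somite arrays and 290.1, 376 and 352 in the 21-25 somite arrays (-1.03 ± 0.37) and was low in all later arrays. Without the same array the ribosome assembly, proteasome and mitochondrial ribosomal medians were -0.32, -0.43 and -0.44, and those of Hox, forkhead, E2F and semaphorin-class genes were 0.19, 0.19, 0.18 and 0.13, relative to all genes.

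Erythroid markers had 8 of 10 genes lower and a median of -0.52, which was -0.33 relative to all genes without 21-25 somites replicate 1. The embryonic globin Hbb-bh1 had 19183, 18200.2 and 16797 in the 16-20 somite arrays and 2511, 12702 and 12214 in the 21-25 somite arrays (-1.30 ± 0.58), and the red-cell factor Klf1 had 264, 311 and 178 in the 16-20 somite arrays and 96.8, 174 and 138 in the 21-25 somite arrays (-0.77 ± 0.29), both without overlap, and further probe sets of Hbb-bh1 gave -1.31 and -1.89. Hbb-y, another embryonic globin, had 18383, 20299 and 18087 in the 16-20 somite arrays and 14935, 18099 and 22504 in the 21-25 somite arrays (-0.05 ± 0.27), with overlapping groups, while its further probe sets gave -0.01 and -1.55.

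Endothelial, somite and crest marker lists had medians above 0, unlike the cardiac and erythroid lists. All 13 tested endothelial markers had a difference above 0, with a median of 0.28, yet none had an unadjusted p under 0.05, and the median was 0.041 relative to all genes without 21-25 somites replicate 1. Summed over the 17 endothelial markers on the array, signals were 2907, 3518 and 3659 at 16-20 and 5439.9, 3298 and 3994 at 21-25 somites. Somite and paraxial mesoderm markers were higher in 7 of 8 tested genes (median 0.43). Signals summed over the 12 on the array were 1726, 1764 and 1839.9 at 16-20 and 3459.7, 1951 and 2331 at 21-25 somites, without overlap. Foxc2 (given above) and Meox2, with 103, 70.3 and 75.3 in the 16-20 somite arrays and 322, 99.2 and 148 in the 21-25 somite arrays (0.86 ± 0.39), had an unadjusted p under 0.05. Neural crest markers were higher in 8 of 8 genes (median 0.35). The smallest p belonged to Ets1 (0.96 ± 0.34, further probe sets -0.03 and 0.90) and Tfap2a, with 284, 327 and 226 in the 16-20 somite arrays and 663, 409 and 394 in the 21-25 somite arrays (0.73 ± 0.26, a second probe set 0.09). Without 16-20 somites replicate 2, in which Sox10 stood at 33.1 against 290.5 and 184 in the other arrays of its stage, the crest median was 0.04 relative to all genes. Splanchnic mesenchyme markers were mixed, with 8 of 13 genes higher, a median of 0.20 and 1 gene in each direction at an unadjusted p under 0.05. Neural tube markers were higher in 6 of 8 tested genes (median 0.20), 0 of them at that p. Signals summed over the 17 on the array were 1889, 1860.3 and 2074 at 16-20 and 2536, 1600.3 and 2725 at 21-25 somites, and overlapped. Among the list's genes below the filter, Sox1, Olig2 and Neurog1 were at 44.7 or less in every array. Elavl3, of early neurons, had 14.6, 10.4 and 6.4 in the 16-20 somite arrays and 119.5, 19.3 and 97 in the 21-25 somite arrays, and Zic1 had 37.6, 85.6 and 59.1 in the 16-20 somite arrays and 175, 63.4 and 103 in the 21-25 somite arrays. Others ran lower, with Pax3 at 92.1, 74 and 52.7 in the 16-20 somite arrays and 13.2, 78.3 and 11.1 in the 21-25 somite arrays. Neurog1 had 44.7, 26.7 and 30.5 in the earlier and 23.2, 12.8 and 15.4 in the later arrays. Of 10 immune markers 3 were above the filter.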

How the data were processed

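Per the submitters' processing notes, the deposited signals are MAS5 intensities computed by the authors on a linear scale. The version and the scaling target are not stated there. Array means, trimmed by 2% on either side, lay at 500.2 to 500.3. Such scaling leaves the signal range of an array as it was, and 2 rounds of amplification favour 3' ends. Of 22690 probe sets, 64 were controls, and the platform annotation gave 20380 others 1 gene symbol, 691 several and 1555 none. Each gene was represented by its probe set of highest mean (12393 genes). The number of arrays limits the precision, and p-values measure the spread between pools.

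The pseudocount of 26.1 was the 20th percentile of all values. A low-signal filter at the 30th percentile of the genes' mean signals kept 8675 genes. limma 3.58.1 in R 4.3.3 (eBayes with a trend, 6 residual degrees of freedom) was run on all 9 arrays with 1 mean per stage, and the two-sided contrast 21-25 minus 16-20 somites was adjusted by Benjamini-Hochberg at 0.05. The fit was tested on simulated data with known answers. The labels state no pairing by replicate number, and none was fitted. Deviations of same-numbered arrays correlated at -0.10, -0.04 and 0.12, and those of unlike number at -0.19 to 0.20. With 3 arrays a stage these values cannot decide whether arrays of the same number share anything.

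Of 112 gene classes and marker lists, 111 had 5 or more tested genes, and the 12 with the highest and the 12 with the lowest median relative to all genes were described, and others are given by counts and medians. Named genes were the 15 of smallest p in each direction, up to 5 members of smallest p per described class, and 40 chosen foregut and tissue genes. Members, classes and lists were chosen with earlier results of these data known. Alternatives covered normalization, pseudocount (6.52 or 104), filter, trend, array weights, replicate block, probe sets, samples in the fit and a covariate, and each of the 6 arrays left out in turn. Fits without the 3 arrays of narrow signal range, and without 21-25 somites replicates 1 and 2, were added after seeing the data. Promoter sequences are RefSeq's (GRCm38.p6), and printed genes have 1 window each.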

Additional observations from a re-analysis of the deposited data

How the results depend on the processing

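With 3 pools a stage the arrays limit what can be seen, and MAS5 keeps the unequal signal ranges of the arrays. Values here are log2 differences, and class medians are relative to the median of all genes.

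Of 20 alternatives, 16 called 0 genes. Adding each array's 99th percentile as covariate called 1 gene, Rpl41 (-1.98, adjusted p = 0.0331 by limma), as did leaving out the 3 arrays of narrow signal range (1 gene, Rpl41, -2.08, adjusted p = 0.0348). Leaving out 21-25 somites replicates 1 and 2 called 1 gene, Rhbdd3 (-3.35, adjusted p = 0.00244), which rests on a single later array assumed to vary like the others. Leaving out single arrays called 0 to 3 genes, the 3 being Psmd13, Sf3b5 (-2.97, adjusted p = 0.00604) and Sugp2 (1.99, adjusted p = 0.0474) without 21-25 somites replicate 3. Rpl41, Rhbdd3, Sf3b5 and Sugp2 were named after their values were seen, and the cause was not tested. Genes at an unadjusted p under 0.05 numbered 305 to 776 higher and 254 to 606 lower as single arrays were left out. They numbered 217 higher and 295 lower without the 3 arrays of narrow range, and 157 and 150 without 21-25 somites replicates 1 and 2, fits with fewer arrays. Using the replicate number as a block, although the labels state no pairing, gave 0 called genes by limma. It gave 495 higher and 476 lower at that p, and a smallest adjusted p of 0.304.

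In the following, class medians that shifted are those of described classes that moved by more than the class's own spread between arrays. With each array's 99th percentile as covariate, the class medians that shifted were Hox genes 0.32, cadherins 0.26, E2F and retinoblastoma factors 0.086 and oncofetal genes 0.13, and the gene differences of turned sign were Hbb-y 0.19, Tbx5 -0.088 and Vim -0.092. Lower classes moved towards 0 within that spread under the covariate, with the COP9 signalosome at -0.078, translation factors at -0.11, CCT and prefoldin at -0.21, the proteasome at -0.27 and mitochondrial ribosomal proteins at -0.31. With the 3 arrays of narrow signal range left out, the class medians that shifted were Hox genes 0.25, cadherins 0.16, E2F and retinoblastoma factors 0.11 and oncofetal genes 0.090, and the gene differences of turned sign were Flt4 -0.0025, Foxa1 -0.071, Gata6 -0.0067, Hbb-y 0.095, Tbx5 -0.36 and Vim -0.099. With 21-25 somites replicates 1 and 2 left out, the class medians that shifted were Hox genes 0.15, cadherins 0.25, oncofetal genes 0.096, translation factors -0.0015, anaphase-promoting complex -0.0088 and Mediator subunits -0.087, and the gene differences of turned sign were Aldh1a2 -0.15, Cdh1 0.23, Epcam 0.19, Gata4 -0.13, Hbb-y 0.25 and Hoxb1 -0.044. With a pseudocount of 104, the class medians that shifted were Hox genes 0.25 and cadherins 0.24, and the gene differences of turned sign were Bmp4 0.0094 and Gli1 0.011. With no filter, the class medians that shifted were Hox genes 0.22, cadherins 0.15, E2F and retinoblastoma factors 0.20, forkhead factors 0.12 and collagens 0.11. With a filter at the 50th percentile, the class medians that shifted were Hox genes 0.21, neural crest markers 0.67 and forkhead factors 0.49. With array weights, the class medians that shifted were Hox genes 0.19, forkhead factors 0.22, oncofetal genes 0.14 and the semaphorin and SLIT class 0.12, and the gene differences of turned sign were Afp 0.040, Aldh1a2 -0.079, Cdh1 0.25, Gata4 -0.098 and Hbb-y 0.18. With averaging over a gene's probe sets, the class medians that shifted were Hox genes 0.32, forkhead factors 0.17 and oncofetal genes -0.23, and the gene difference of turned sign was Mycn -0.23. With quantile normalization, the gene difference of turned sign was Hbb-y 0.19. With a pseudocount of 6.52, the gene difference of turned sign was Tbx5 -0.038. The cause of these shifts was not tested.

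As single arrays were left out, class medians ran as follows: Hox genes 0.19 to 0.51, neural crest markers 0.040 to 0.58, cadherins 0.16 to 0.49, E2F and retinoblastoma factors 0.11 to 0.44, forkhead factors 0.19 to 0.41, oncofetal genes 0.090 to 0.37, the semaphorin and SLIT class 0.13 to 0.28, receptor tyrosine kinases 0.15 to 0.39, collagens 0.048 to 0.30 and Mediator subunits -0.29 to -0.12. For genes whose sign turned, the differences were Afp -1.05 to 0.67, Aldh1a2 -0.0062 to 0.62, Bmp4 -0.45 to 0.38, Cdh1 -0.53 to 0.53, Epcam -0.81 to 0.27, Erbb3 -0.014 to 0.58, Flt4 -0.0025 to 0.73, Foxa1 -0.10 to 0.48, Gata4 -0.042 to 0.31, Gata6 -0.012 to 0.23, Gli1 -0.45 to 0.40, Hbb-y -0.20 to 0.095, Hhex -0.57 to 0.17, Myh6 -0.20 to 1.55, Myl4 -1.12 to 0.096, Osr1 -0.20 to 0.75, Rarb -0.24 to 0.12, Sox10 -0.024 to 1.19, Tbx5 -0.36 to 0.75 and Vim -0.099 to 0.36. Of 3363 alternative values of the 170 named genes, 60 had a turned sign, and of 2217 class medians 224 shifted by more than the class's own spread between arrays. Classes that varied much between arrays could change widely without being counted. Without 16-20 somites replicate 2 the hepatic median went from -0.92 to -0.09 and the cardiac one from -0.28 to 0.19. Without 21-25 somites replicate 1 the endothelial median went from 0.27 to 0.04. None of these changes was counted.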
